A study of Mus musculus with 2 samples.

Results

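ATF4 is a transcription factor that cells make when translation is slowed by stress, and it raises the genes with which they import and synthesise amino acids and load them onto tRNA. The 39 genes described here are ATF4 and its partners and regulators, enzymes of asparagine, serine and one-carbon supply, plasma membrane amino acid transporters, and the cytosolic tRNA synthetases. They were chosen by name, and 38 of them, read by 80 probe sets, could be measured out of 18193 genes in all. The one not analysed here is Dars. All 38 lay above background on both arrays, so none was lost to the filter on low signal.

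Epithelial cells positive for CD34 were sorted from mouse skin tumours, and 1 Affymetrix Mouse 430 2.0 array was run for each genotype, K14CreER:Rosa-VEGF-164 and wild-type. In the first genotype, Cre recombinase fused to a hormone-binding domain is driven by the keratin 14 promoter, which is active in basal epidermal cells, and is to switch on a VEGF-164 transgene at the Rosa locus. Mice of both genotypes received the carcinogen DMBA at postnatal days 23, 25 and 27, then repeated applications of the tumour promoter TPA, and DMBA again at 7 weeks of age. Live cells were stained for CD34, α6-integrin and Epcam, with CD45, CD31 and CD140a on 1 shared dye, and 100 ng of RNA was labelled per array. The sources used here do not say how many tumours or animals went into an array.

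With 1 array per genotype there is no replicate error and no test between genotypes, so each value stands alone and genes are called by size, at 2-fold or more. The only error at hand is how far a gene's probe sets disagree, an SD of 0.32 on the log2 scale for 1 probe set at high signal, 0.42 at medium and 0.50 at low signal (tertiles). It covers neither the spread between animals and sorts nor anything shared by a gene's probe sets. Values are MAS5 signals, which have no unit, from the brightest probe set of each gene, and each log2 ratio divides the array labelled VEGF by the wild-type array. Background was a signal of 11.3 on the array labelled VEGF and 19.8 on the wild-type array.

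The gained gene does not check the label. Vegfa gave signals of 397 and 127 by its probe sets on the array labelled VEGF, against 804 and 302 on the wild-type array, and whether either probe set reads the transgene is not known here. All 7 keratinocyte markers were above background on both arrays. Their summed signal was 27298 on the array labelled VEGF against 30302 on the wild-type array. Trp63 and Itga6 had log2 ratios of -0.77 and -0.71, and the other keratinocyte markers lay between -0.08 and 0.25. Of markers of other cells, those of fibroblasts had a summed signal of 2667 on the array labelled VEGF against 1177 on the wild-type array (7 and 6 of 7 above background), most of it Col1a2 and Col3a1, while Thy1 and Dcn had log2 ratios of -1.21 and -0.34, and those of melanocytes 188 against 391 (5 and 4 of 6). Leukocyte markers summed to 241 against 240 (6 and 4 of 8), neutrophil markers to 67.2 against 98.8 (4 and 1 of 6), endothelial markers to 122 against 82.9 (4 and 1 of 7), and muscle and fat markers, nearly all of it Fabp4, to 1716 against 4843 (3 and 4 of 6). No measured marker had a signal of 0. The ratio of 3′ to 5′ control probe sets, a sign of RNA integrity, was 1.45 for Actb on the array labelled VEGF and 2.01 on the wild-type array, and 0.912 and 1.15 for Gapdh. The part of these differences in the results below was not tested, and in such bulk RNA a change in the number of cells of a type cannot be told apart from a change in RNA per cell.

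A few genes of amino acid supply were higher on the array labelled VEGF, while the transcript of ATF4 itself was not. Of the 38 genes, 5 were higher by 2-fold or more and 0 were lower by as much, where the shares over all 12198 genes with a fold were 3.87% and 8.53%. The 5 were Slc7a11, Slc1a5, Mthfd2, Asns and Chac1. A log2 ratio above 0 was found for 30 of 38, against 47.1% of all genes, and the median log2 ratio was 0.44, against -0.04 over all genes. Of these 30, 16 were tRNA synthetases, and of the 21 other genes 14 were above 0 (66.7%), with a median of 0.43. Of the 35 that were well above background, with a mean signal 4 times it or more, 28 had a ratio above 0 (against 53.8% of the 8068 such genes), 4 were higher by 2-fold or more (3.68%) and 0 lower (3.69%), and the median was 0.43 (0.04). By more than the SD between probe sets, 21 of 38 were higher and 1 was lower, against 19.7% and 26.8% of all genes. Those shares include genes at low signal and were not taken at matched signal. The plot of signals shows both values for each gene.

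**Figure D1:**
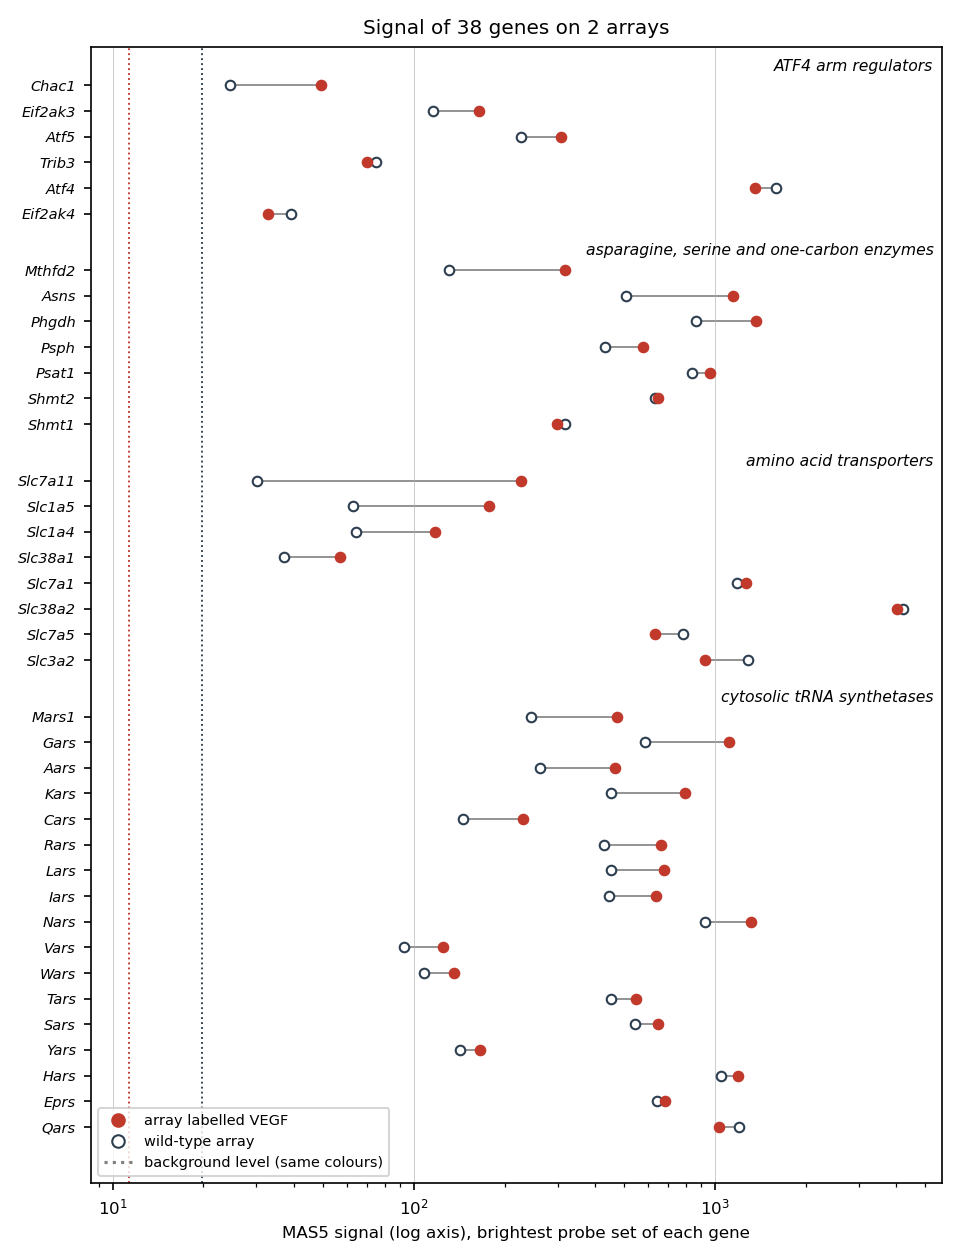
MAS5 signal (log axis, no unit) of the brightest probe set of each of the 38 genes, grouped by role, on the array labelled VEGF (filled) and the wild-type array (open), with each array's background as a dotted line. The widest gaps are those of Slc7a11 (226 against 30.2) and Slc1a5 (177 against 62.7), both towards the array labelled VEGF, and Slc3a2 lies the other way (929 against 1286).

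ATF4 is controlled mainly at translation. Kinases that phosphorylate the initiation factor eIF2 slow protein synthesis in general and at the same time let ribosomes reach the ATF4 reading frame, so a transcript level says little of the protein. Eif2ak3, which encodes the kinase PERK of endoplasmic reticulum stress, had a signal of 165 on the array labelled VEGF against 116 on the wild-type array, a log2 ratio of 0.51 (SD 0.42). Eif2ak4, which encodes GCN2, the kinase that senses uncharged tRNA, had 32.7 against 39.2, a log2 ratio of -0.26 (SD 0.50). Neither kinase transcript was 2-fold apart.

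Atf4 had a signal of 1358 on the array labelled VEGF against 1600 on the wild-type array by its brightest probe set (log2 ratio -0.24, SD 0.32). Another probe set, named _x_at because its probes may cross-hybridise, gave 685 against 1383, which is 2.02-fold lower, and the remaining one was below background on both arrays. Both readable probe sets had ratios below 0, by unequal amounts, but when the arrays were scaled to equal medians, which multiplies the array labelled VEGF by 1.31, and 50 was added to each signal, the brightest gave 0.15. Atf5, a related factor whose messenger is under the same kind of translational control, had 307 against 226 (0.44, SD 0.32).

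Trib3 and Chac1 are targets of ATF4, and they differed. Trib3, which encodes a pseudokinase that feeds back on ATF4, had signals of 69.6 and 64.7 by its probe sets on the array labelled VEGF, against 74.9 and 73.2 on the wild-type array, log2 ratios of -0.11 and -0.18. Chac1, which encodes an enzyme that breaks down glutathione, had 49.1 against 24.5 by its only probe set, 2.01-fold higher. This fold sits at the 2-fold limit, at low signal where the SD of the log2 ratio is 0.50, and with 50 added to each signal in place of the background floor the log2 ratio was 0.41 (0.62 with the medians matched too). Of the 6 regulators and feedback genes, 3 had a log2 ratio above 0 and 3 below, where 47.1% of all genes were above 0. Their median was 0.17.

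Asparagine synthetase and the mitochondrial folate enzyme led the enzymes. Asns, whose product makes asparagine from aspartate and glutamine, had signals of 1144 and 997 by its probe sets on the array labelled VEGF, against 508 and 408 on the wild-type array. These are 2.25-fold and 2.44-fold higher, so both probe sets passed 2-fold. Mthfd2, which carries one-carbon units within mitochondria, had 317 against 131 by its brightest probe set, 2.43-fold higher, and 204 against 131 by the other, 1.56-fold higher. With the median over probe sets its log2 ratio was 0.96, just under 2-fold.

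The serine pathway makes serine from a glycolytic intermediate in steps catalysed in turn by the products of Phgdh, Psat1 and Psph. All had log2 ratios above 0 and none was 2-fold apart by its brightest probe set. Phgdh had 1367 on the array labelled VEGF against 866 on the wild-type array (0.66, SD 0.32). Its 4 probe sets, all of this _x_at kind, went the same way but were far from equal. They gave log2 ratios from 0.47 to 4.23, the highest of them 889 against 47.2, an 18.8-fold difference that no other Phgdh probe set came near. Psat1 had 960 against 840 (0.19, SD 0.32), and 1063 against 681 by its other probe set (0.64). Psph had 578 against 430 (0.43, SD 0.32).

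Serine hydroxymethyltransferases turn serine into glycine and hand a carbon to folate, in the cytosol for Shmt1 and in mitochondria for Shmt2. Shmt1 had 299 on the array labelled VEGF against 317 on the wild-type array (-0.08), and Shmt2 had 647 against 630 (0.04). Probe sets of both genes disagreed in sign, from -0.58 to 1.43 for Shmt1 and from -0.53 to 0.77 for Shmt2. No direction can be read for either. Of the 7 enzymes, 2 were at least 2-fold higher and 6 had a log2 ratio above 0, against 3.87% and 47.1% of all genes. Their median was 0.43.

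Slc7a11 stood at the top of the 38 genes. It encodes xCT, the light chain of the exchanger that imports cystine for glutathione against glutamate. Its signals were 226 and 109 by its probe sets on the array labelled VEGF, against 30.2 and 32.2 on the wild-type array. The folds were 7.49 and 3.37, both higher, with wild-type signals not far above the background of 19.8, where the SD of a log2 ratio is 0.50. With 50 added to each signal the brightest probe set gave a log2 ratio of 1.78 (2.11 with the medians matched too), where 2.91 is the value as reported. Genes of the NRF2 antioxidant response, for which Slc7a11 is a known target as well, had a median log2 ratio of 0.30. Of these 10 genes, 0 were 2-fold apart and 7 were above 0, against 47.1% of all genes and 53.8% of those well above background.

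Slc3a2, which encodes the heavy chain that carries xCT and LAT1 to the membrane, went the other way, with 929 on the array labelled VEGF against 1286 on the wild-type array. Its log2 ratio of -0.47 (SD 0.32) was the lowest of the 38 genes. Slc7a5, which encodes the leucine transporter LAT1, had 632 against 781 (-0.31, SD 0.32), and 0.08 with matched medians and 50 added. The gene of the xCT chain was higher while that of its heavy chain was not. Each of Slc3a2 and Slc7a5 was read by 1 probe set.

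Of the neutral amino acid carriers of the SLC1 family, Slc1a5 passed 2-fold and Slc1a4 did not by its brightest probe set. Slc1a5, which encodes the glutamine transporter ASCT2, had 177 on the array labelled VEGF against 62.7 on the wild-type array, 2.83-fold higher, while its other probe set was below background on both arrays. Slc1a4, which encodes the serine and alanine transporter ASCT1, had 117 against 64.3, 1.83-fold higher. Its further probe sets gave 61.9 against 28.9, 2.14-fold higher, and at least 1.27-fold higher against the floor.

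The system A and cationic carriers were closer to equal. Slc38a1, which encodes the glutamine carrier SNAT1, had 56.8 on the array labelled VEGF against 36.9 on the wild-type array (0.62, SD 0.50). Slc38a2, which encodes SNAT2, the carrier induced by amino acid shortage, had 4029 against 4220 (-0.07). Its dimmer probe sets gave -0.63 and -0.99, so all 3 were below 0, although the brightest gave 0.08 after quantile normalization and 0.32 with matched medians and 50 added. Slc7a1, which encodes the arginine transporter CAT1, had 1267 against 1179 (0.10) and 810 against 831 by its other readable probe set (-0.04). Of the 8 transporters, 2 were at least 2-fold higher and 5 had a log2 ratio above 0, against 3.87% and 47.1% of all genes. Among genes well above background, 53.8% were above 0. The transporter median was 0.36.

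**Figure D2:**
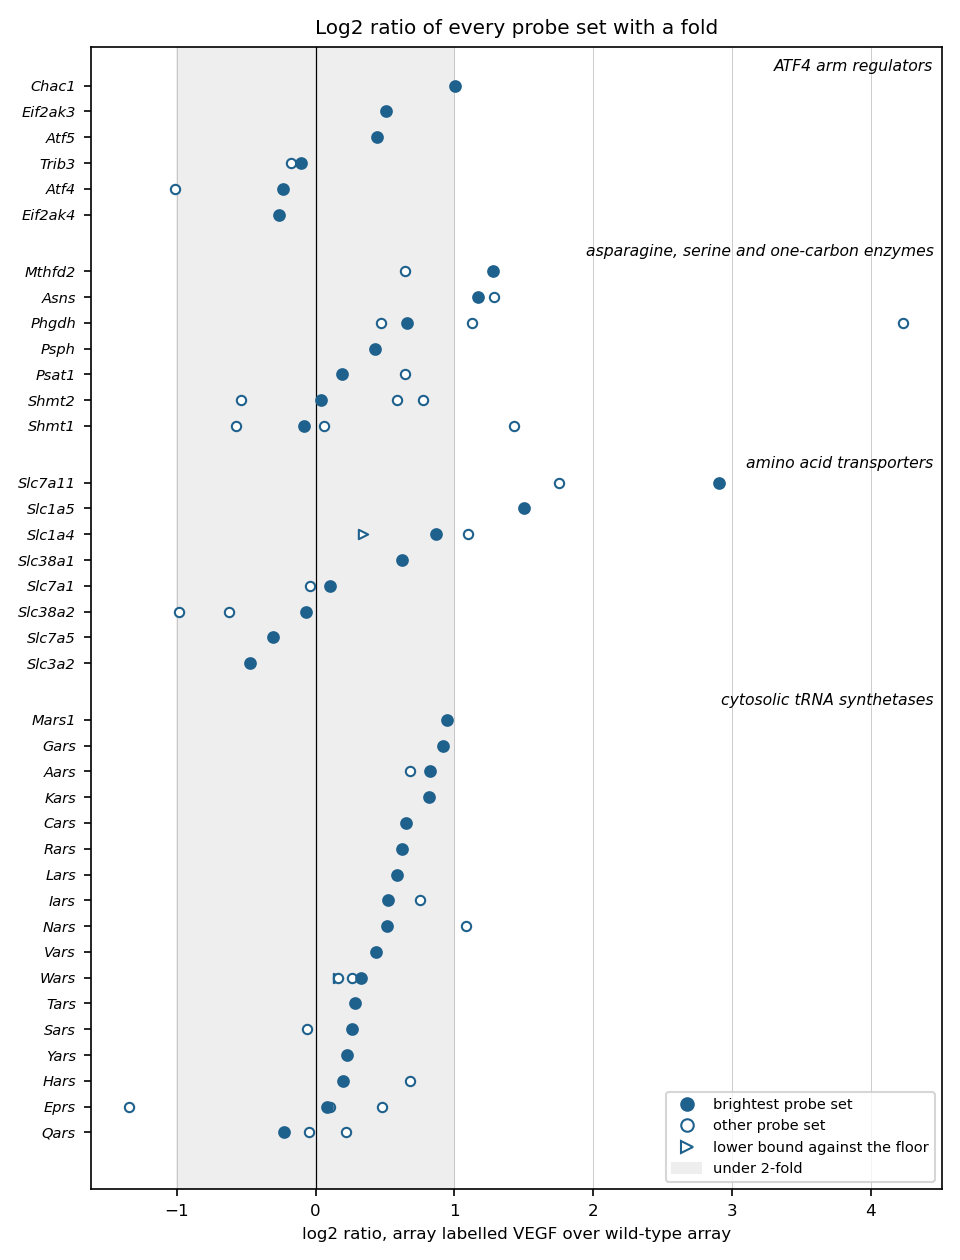
Log2 ratio, array labelled VEGF over wild-type array, of every probe set with a fold, by gene; filled points are the brightest probe set, open points the others, triangles lower bounds against the floor, and the grey band is under 2-fold. Of 71 such probe sets 53 lie above 0 and 18 below, with Phgdh at 4.23 and Eprs at -1.34 the far ends.

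Cytosolic tRNA synthetases attach each amino acid to its tRNA. None was 2-fold apart, yet their log2 ratios lay mostly on one side. Of the 17, 16 were above 0, against 47.1% of all genes and 53.8% of the genes well above background. The median was 0.52 with a range from -0.22 to 0.95. By more than the SD between probe sets, 10 were higher and 0 were lower, against 19.7% and 26.8% of all genes. Those shares include genes at low signal and were not taken at matched signal. The highest was Mars1 (formerly Mars), for methionine, with 473 on the array labelled VEGF against 245 on the wild-type array (0.95, SD 0.32). Gars, for glycine, had 1109 against 586 (0.92), Aars, for alanine, 465 against 263 (0.82) and Kars, for lysine, 794 against 450 (0.82). The folds of these 4 ran from 1.76 for Kars to 1.93 for Mars1, all under 2-fold.

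A middle group had log2 ratios between 0.43 and 0.65. Cars, for cysteine, had 229 on the array labelled VEGF against 146 on the wild-type array (0.65), and Rars, for arginine, 661 against 429 (0.63). Lars, for leucine, had 679 against 452 (0.58), and Iars, for isoleucine, 637 against 445 (0.52). Nars, for asparagine, had 1320 against 923 (0.52), and its other probe set 986 against 465, 2.12-fold higher. Vars, for valine, had 125 against 92.5 (0.43, SD 0.42).

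The rest were within the SD between probe sets. Wars, for tryptophan, had 136 on the array labelled VEGF against 108 on the wild-type array (0.33), and Tars, for threonine, 548 against 450 (0.29). Sars, for serine, had 648 against 541 (0.26), Yars, for tyrosine, 166 against 142 (0.23) and Hars, for histidine, 1195 against 1044 (0.20). Eprs, which joins the enzymes for glutamate and proline in 1 protein, had 680 against 641 (0.09). Its dimmest probe set gave 18.4 against 46.7, 2.54-fold lower, unlike its other 3. Qars, for glutamine, was the only synthetase below 0, with 1031 against 1204 (-0.22) by an _x_at probe set, while its brightest other kind gave 691 against 593 (0.22). Of the 8 synthetases with further readable probe sets, 5 had all of them on one side of 0, and Eprs, Qars and Sars did not.

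Near their start sites, ATF4 targets may hold a C/EBP-ATF response element, or CARE, where ATF4 binds as a dimer with a C/EBP protein. The letters TGATGNAA were searched on both strands of RefSeq promoter windows (GRCm38.p6), which run from 250 bases before to 50 after a gene's start. Windows were in the table for 28 of the 38 genes (32 windows), and 10 windows, of 10 genes, held a match, or 31.2%, against 3.97% of all 32851 windows. The common form TGATGCAA, which is contained in the first pattern, was in 7 of the 32 windows (21.9%) and in 0.895% of all. The core of the antioxidant response element, TGACNNNGC, was in 8 (25.0%) and in 12.4% of all. The Slc7a11 window held no exact match to this antioxidant element core. An exact search of a short window cannot show that such an element is absent. The 10 genes with a CARE match had a median log2 ratio of 0.85, with 9 above 0 and 3 at least 2-fold higher. The 18 genes whose windows held none had a median of 0.15, with 12 above 0 and 1 at least 2-fold higher. The 10 genes with no window in the table had a median of 0.55, with 9 above 0 and 1 at least 2-fold higher. Over all genes the median was -0.04, with 47.1% above 0 and 3.87% at least 2-fold higher. Known ATF4 targets were among the genes chosen by name, and the share of windows with a match depends on that choice. Neither this share nor the split by match was tested, and a match describes letters and not a site in use.

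The promoters of the 3 genes that both held a match and were at least 2-fold higher are shown as the 250 bases before the start, on the gene's strand, with matches in capitals. Slc7a11 (chr3:50443614-50443863, minus strand) holds 2 matches in opposite orientation, starting 66 and 47 bases before the start. Asns (chr6:7693210-7693459, minus strand) holds 1, starting 23 bases before it, and Chac1 (chr2:119350992-119351241, plus strand) holds 1, starting 193 bases before it.
Slc7a11: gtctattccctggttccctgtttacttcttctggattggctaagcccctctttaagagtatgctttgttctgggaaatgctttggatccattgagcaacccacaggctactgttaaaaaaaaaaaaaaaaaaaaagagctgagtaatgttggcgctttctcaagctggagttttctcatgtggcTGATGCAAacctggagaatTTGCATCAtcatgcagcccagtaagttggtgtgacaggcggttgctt
Asns: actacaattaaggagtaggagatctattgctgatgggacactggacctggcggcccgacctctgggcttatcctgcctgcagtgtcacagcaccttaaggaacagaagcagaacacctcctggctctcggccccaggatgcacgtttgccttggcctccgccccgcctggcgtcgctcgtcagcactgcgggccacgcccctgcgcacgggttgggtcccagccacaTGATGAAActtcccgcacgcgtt
Chac1: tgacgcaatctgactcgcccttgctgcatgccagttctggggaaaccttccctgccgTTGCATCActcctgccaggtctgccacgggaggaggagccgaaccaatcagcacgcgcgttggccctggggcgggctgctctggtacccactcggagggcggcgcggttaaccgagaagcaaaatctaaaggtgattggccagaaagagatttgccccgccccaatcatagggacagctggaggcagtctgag

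For 6 further genes with a match, 30 bases around it are shown to compare the letters next to it, again with the match in capitals and 5′ to 3′ on the gene's strand. Each window holds 1 match. Of these 6 matches, 3 read TTGCATCA, the common form on the opposite strand (Iars, Tars and Slc1a4), and Yars reads TGATGCAA, the same on its own strand. Gars reads TTTCATCA, and Trib3, which was near equal on the arrays, reads TTACATCA. The windows are Gars (chr6:55037960-55037989, plus strand), Iars (chr13:49682126-49682155, plus strand), Tars (chr15:11399655-11399684, minus strand), Yars (chr4:129189895-129189924, plus strand), Slc1a4 (chr11:20332699-20332728, minus strand) and Trib3 (chr2:152344028-152344057, minus strand).
Gars: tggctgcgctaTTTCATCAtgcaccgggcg
Iars: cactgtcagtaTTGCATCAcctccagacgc
Tars: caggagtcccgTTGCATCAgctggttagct
Yars: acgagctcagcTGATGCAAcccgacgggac
Slc1a4: tgcctcctgcgTTGCATCAtctccagcctg
Trib3: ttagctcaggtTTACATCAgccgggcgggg

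Genes beside these in the same pathways are given by list, and their counts read against the shares over all genes, 3.87% higher and 8.53% lower by 2-fold or more and 47.1% above 0. Of 15 further ATF4 target and stress genes with a fold (of 18 listed), 0 were higher by 2-fold or more and 1 lower by as much, 6 had a log2 ratio above 0, and the median was -0.29. At 1 of 15 the lower count is near the share over all genes. Cebpb, which encodes a partner of ATF4, was 2.16-fold lower, with 1993 on the array labelled VEGF against 4298 on the wild-type array. Its other probe set gave -0.87, under 2-fold. Stc2, a secreted glycoprotein gene, had 38.2 against 74.5 (-0.96, with other probe sets at -1.56 and -0.45). Ddit4, which encodes an inhibitor of mTORC1, had 2257 against 3784 (-0.75). Ddit3, which encodes the stress factor CHOP, had 92.2 against 136 (-0.56, with its other probe set at -0.12). Nupr1, the highest of the 6 genes above 0, had 806 against 499 (0.69, with its other probe set at 0.90). Ddit3 and Nupr1 are named after their values were seen.

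For eIF2 and its regulators, 0 of 15 were 2-fold apart, 11 had a log2 ratio above 0, and the median was 0.08. Eif2ak1, which encodes the heme-regulated kinase, had 34.2 on the array labelled VEGF against 62.1 on the wild-type array (-0.86). Its other probe sets gave -0.31 and -0.20. The eIF2B exchange factor genes Eif2b3 and Eif2b5 had 222 against 132 (0.75) and 515 against 324 (0.67). Genes of the unfolded protein response, mostly chaperones but also the regulators Xbp1, Atf6 and Ern1, had a median of 0.08. Of these 12 genes, 0 were 2-fold apart and 7 were above 0. Their largest ratios were those of Sdf2l1 (196 against 98.0, 1.998-fold), Dnajb9 (472 against 769, -0.70) and Atf6 (85.7 against 53.8, 0.67, with other probe sets at -0.28 and 0.03).

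Of 20 further amino acid and one-carbon enzymes with a fold, 2 were higher by 2-fold or more and 1 lower by as much, 12 were above 0, and the median was 0.23. Gpt, an alanine aminotransferase gene, was 2.37-fold higher (323 on the array labelled VEGF against 136 on the wild-type array), with its other probe set at 0.28. Bcat2, which encodes a mitochondrial branched-chain aminotransferase and is named after its values were seen, was the other higher gene, with 45.6 against 14.6, below background on the wild-type array, or at least 2.30-fold higher. Got1, an aspartate aminotransferase gene, had 130 against 65.3 (0.99). Glul, which encodes glutamine synthetase, was 3.23-fold lower (322 against 1042), and its other probe set gave -0.62. The glutamine importer gene Slc1a5 was higher on the array where Glul was lower, and a link between them was not tested. The system A carrier genes Slc38a1 and Slc38a2 had log2 ratios of 0.62 and -0.07.

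Further amino acid transporters had a median of -0.16 over 22 genes, with 1 higher by 2-fold or more, 2 lower by as much and 8 above 0. Slc7a2, which encodes the cationic transporter CAT2, was 5.81-fold lower, with 36.6 on the array labelled VEGF against 212 on the wild-type array, and its other probe set gave -0.97. Slc7a8, which encodes LAT2, was 2.28-fold lower (206 against 471), and Slc38a9, which encodes a lysosomal arginine sensor, had 22.0 against 41.5 (-0.91). The 1 higher gene, Slc6a14, which encodes a carrier of neutral and cationic amino acids, is named after its values were seen. Its signal was 126 on the array labelled VEGF against 7.73, below background, on the wild-type array, or at least 6.36-fold higher, and its other probe set gave a log2 ratio of 1.59.

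Mitochondrial tRNA synthetases, a separate set of nuclear genes, had a median of 0.05 over 15 genes, with 8 above 0, 1 at least 2-fold higher and 0 lower. The cytosolic enzymes had 16 of 17 above 0 and a median of 0.52. Their signals on the array labelled VEGF ran from 125 (Vars) to 1320 (Nars). Those of the mitochondrial enzymes with a fold ran from 24.0 (Aars2) to 257 (Iars2). The sets were not matched for signal, and the difference in log2 ratio between them was not tested. Nars2 was 2.31-fold higher (158 on the array labelled VEGF against 68.4 on the wild-type array), Wars2 had 25.2 against 49.6 (-0.98, with its other probe set at 0.39) and Aars2 24.0 against 43.3 (-0.85). Among the phenylalanine enzyme subunits and the scaffold of the multisynthetase complex, 3 of 5 were above 0 and 0 were 2-fold apart. The scaffold gene Aimp2 had 544 against 301 (0.85) and 0.96 by its other probe set, Farsa had 198 against 146 (0.44) but -1.05 and -0.88 by its others, and Eef1e1 had 778 against 649 (0.26).

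**Figure D3:**
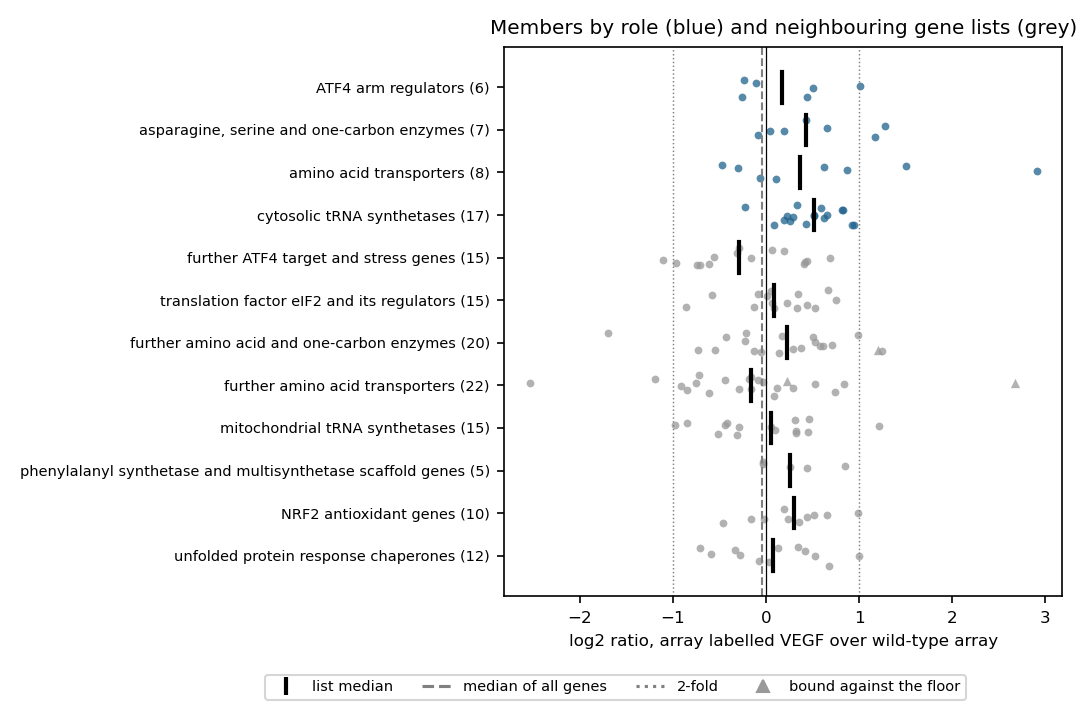
Log2 ratio, array labelled VEGF over wild-type array, of each gene with a fold or bound (number in brackets), in the described genes by role (blue) and in neighbouring lists (grey); black bars are list medians and the dashed line the median of all genes, -0.04. The synthetases have a median of 0.52 and range from -0.22 to 0.95, while the further ATF4 target and stress genes have a median of -0.29.

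The NRF2 genes named by size were Slc48a1, Txnrd1 and Nqo1. Slc48a1, a heme transporter gene, had 345 on the array labelled VEGF against 174 on the wild-type array (0.99), and 0.40 by its other probe set. Txnrd1, which encodes thioredoxin reductase, had 252 against 160 (0.65), and 0.14 and 0.18 by its other probe sets. Nqo1, a quinone reductase gene, had 341 against 239 (0.51). Under other processing settings the median of the 38 genes stayed between 0.33 and 0.62, and that of the synthetases between 0.45 and 0.84, as the plot of medians by setting shows.

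**Figure D4:**
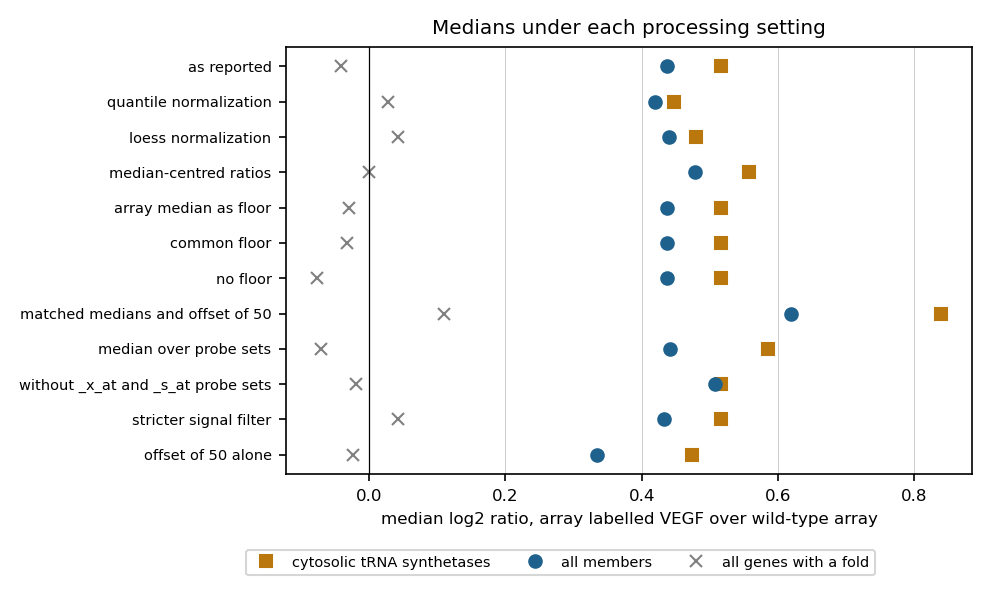
Median log2 ratio, array labelled VEGF over wild-type array, of the cytosolic tRNA synthetases (squares), the 38 genes (circles) and all genes with a fold (crosses) under each of 12 processing settings. Squares lie between 0.45 and 0.84, circles between 0.33 and 0.62 and crosses between -0.08 and 0.11.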

How the data were processed

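Expression was measured on 2 arrays, 1 per genotype, so no test was made. The authors deposited log2 signals made with MAS5, per the submitters' processing notes; the software version and scaling target were not stated. Linear signals had the same 2% trimmed mean on both arrays, 100.04. The number of arrays limits the precision.

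A platform annotation gave exactly 1 gene for 34958 of 45101 probe sets; without 13 array controls, 34945 probe sets of 18193 genes were used. Signals were floored at the 90th percentile of 80 olfactory and vomeronasal receptor probe sets per array. Each gene was represented by its brightest probe set by mean log2 signal. With 1 array above background a fold is a bound against the floor, and bounds under 1-fold were dropped. The SD between probe sets is that of the difference between a gene's 2 brightest, over the square root of 2, across 4885 genes.

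The genes and lists were chosen with earlier results of these data known. All 38 genes are named, and of each neighbouring list the 3 largest log2 ratios in size with both arrays above background. Alternatives were quantile and loess normalization (span 0.4), median-centred ratios, 3 other floors, scaling to equal medians (the array labelled VEGF times 1.31) together with 50 added to each signal in place of the floor, the median over probe sets, leaving out _x_at and _s_at probe sets, and a filter at 4 times background. The addition of 50 without the scaling was chosen after seeing the data. The matches of 1 promoter window are not reported here. Scripts were tested on simulated data. Python 3.11.15, pandas 2.3.3, numpy 2.4.6 and statsmodels 0.14.6 were used.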

Additional observations from a re-analysis of the deposited data

How the results depend on the processing

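No paired analysis was possible because each genotype had 1 array. Under the 11 alternatives, 0 of the 38 genes were at least 2-fold lower, and the count of genes at least 2-fold higher was 4 or 5, except with matched medians and an offset of 50, which change the scaling and the floor together, where it was 9. That setting gave a median of 0.11 over all genes (-0.04 as reported), with 37 of the 38 genes and 17 of 17 synthetases above 0 and 4 synthetases at least 2-fold higher. With the offset alone, chosen after seeing the data, 4 genes were at least 2-fold higher, 30 of 38 and 16 of 17 synthetases were above 0, and the median of all genes was -0.02. Slc7a11, Slc1a5 and Asns were at least 2-fold higher under each alternative, Slc1a5 only just so with the offset alone (1.01). Chac1 was not with the offset (0.41 alone, 0.62 with matched medians), Mthfd2 was not with the median over probe sets (0.96), and the stricter filter gave no value for Chac1. The direction of Atf4, Shmt1 and Slc7a5 turned under 1 alternative, matched medians with the offset. That of Trib3 (loess), Eif2ak4 (quantile, loess), Slc38a2 (quantile) and Qars (without _x_at and _s_at probe sets) turned there and under those in brackets, and that of Shmt2 under quantile and loess. As all 38 genes were above background, the other floors and the stricter filter could not move their values. With genes whose probe set choice stayed the same, 198 of 414 values of single genes under the alternatives equalled the reported ones by construction, and 26 moved by more than the SD between probe sets. Low signal limits Chac1, Eif2ak4 and Slc38a1, which the stricter filter left out.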
